A study of Mus musculus with 17 samples.

Results

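Of 66177 regions of open chromatin measured by ATAC-seq in mouse B-lineage cells, 1446 (2.19%) were annotated to a 3′ untranslated region (3′ UTR), carried no promoter annotation and lay on chr1 to chr19, and these are the regions described here. They were taken from the annotation columns of the deposited table, without use of any accessibility value. A further 387 regions with a 3′ UTR annotation were also promoters and were left out, as were 25 on other chromosomes. The cells were naive lymph node B cells sorted as B220+ GL7- Fas- (nB), germinal center B cells specific for phycoerythrin and sorted as B220+ GL7+ Fas+ PE+ (GCB), and plasma cells sorted from bone marrow by CD138 (BMPC). Mice of both genotypes were homozygous for floxed alleles of Dnmt3a and Dnmt3b. The Dnmt3-deficient mice (KO) also carried Cd19cre/wt, while the Dnmt3-sufficient controls (C) were Cd19wt/wt and had no Cre. Cd19cre acts from early B cell development on, and the background of all mice was B6;129S4-Dnmt3atm3.1Enl Dnmt3btm5.1Enl/Mmnc. They were 8 to 12 weeks old at the start. Of the 16 libraries, 5 were from nB of unimmunized male mice (3 C, 2 KO), 6 from GCB (2 C, 4 KO), each a pool of 2 mice of 1 sex, and 5 from BMPC of female mice (3 C, 2 KO), with GCB and BMPC taken 30 days after immunization with phycoerythrin. KO BMPC replicate 3 was not analysed here. Sex, tissue and immunization therefore cannot be told apart from cell type between nB and BMPC. The same holds for immunization between nB and GCB and for tissue, lymph node against bone marrow, between GCB and BMPC. By name the GCB pools were F2 and M1 in C and F1, F2, F3 and M1 in KO. The mix of sexes thus differed between genotypes in GCB, and between GCB and the other cell types.

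A 3′ UTR is the part of a messenger RNA between the stop codon and the poly(A) tail, and it is best known for what it does in RNA, where microRNAs and RNA-binding proteins act on it and the AATAAA hexamer directs cleavage and polyadenylation. The DNA that encodes it can also hold elements that act on transcription, such as enhancers and sites of the insulator protein CTCF, and these appear in ATAC-seq as accessible stretches because the transposase inserts adapters where nucleosomes are displaced. In B cells, PU.1 and its relatives of the ETS family, Oct-2 with its coactivator OBF-1, and the E proteins are among the factors that bind such elements. During differentiation to plasma cells much of the B cell program is shut down while Blimp-1, IRF4 and XBP1 establish the secretory program.

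Accessibility was read in RPPM, the reads in a region for every 1000000 reads that its library held in all regions, and differences were taken on log2(RPPM + 1). The GCB libraries were the shallowest, at 907959 to 2280954 reads in regions, against 4104875 to 6079018 for nB and 5357687 to 8232313 for BMPC. A count of 3 reads, the floor below which a value was not read as signal, thus equaled at most 0.731 RPPM in nB, 3.30 RPPM in GCB and 0.560 RPPM in BMPC. The 3′ UTR regions took 1.29% to 1.34% of these reads in the nB libraries and 1.44% to 1.51% in those of both GCB and BMPC. The cell type labels were checked on promoters of marker genes. The promoters of 6 naive B cell markers summed to between 316 and 338 RPPM in nB and between 69.0 and 79.0 RPPM in BMPC, those of 6 germinal center markers to between 210 and 256 RPPM in GCB against 188 to 213 in nB and 182 to 199 in BMPC, and the plasma cell markers with a promoter region summed highest in BMPC, between 324 and 363 RPPM. Of 7 myeloid markers, 3 had a promoter region, and their sum lay between 51.1 and 63.3 RPPM in BMPC against 23.2 to 33.1 in nB and 16.4 to 33.7 in GCB, most of it from Cebpe. Of the T cell markers 2 of 6 had one, with sums of 91.8 to 106, 61.1 to 84.8 and 69.5 to 77.7 RPPM in nB, GCB and BMPC, most of them from Lck. The Cd247 promoter was instead highest in GCB, at 1.85, 11.2 and 2.71 RPPM in C nB, GCB and BMPC. In KO these were 1.74, 14.1 and 2.05. Of the erythroid markers 2 of 6 had a promoter region, with sums of 15.0 to 17.3, 19.1 to 25.9 and 19.0 to 26.1 RPPM. Lyz2, Mpo, Cd3e and Klf1 had none, and the part of other cells in the differences given here was not tested.

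The sequences printed here are 30-base windows of the mm9 reference from named regions, each 5′ to 3′ on the strand that carries the motif. The motif core is in capitals. The cores shown were chosen as examples. Over all 3′ UTR regions ATGCAAAT stood in 4.50%, GGAAGT in 28.0% and a CTCF core in 21.9%. CAGCTG (24.3%) and TGTGGT (24.7%) are not shown. The first set comes from regions that rose from nB to GCB and holds the octamer ATGCAAAT, the core bound by Oct factors, which 3 of the 5 named regions of this kind carried in their central 300 bp. The windows are chr5:150419645-150419674 on the plus strand for Hsph1, chr9:83491818-83491847 on the minus strand for Sh3bgrl2 and chr12:86265014-86265043 on the minus strand for Arel1.
Hsph1: tgaaagcccttATGCAAATcagacttagtc
Sh3bgrl2: ctgtgtgtgctATGCAAATgtcctcgcagg
Arel1: cccagtcaccaATGCAAATaaaatcttcta
The second set comes from regions that fell from nB to BMPC and holds GGAAGT, a core of PU.1 and other ETS factors, which 4 of the 8 named regions of this kind carried. The windows are chr16:95582098-95582127 on the minus strand for Erg, chr1:16335289-16335318 on the plus strand for Stau2 and chr16:36717732-36717761 on the minus strand for Ildr1.
Erg: acaactgcccaaGGAAGTggccttaagtag
Stau2: actgtaaaaaggGGAAGTgatgtaaacact
Ildr1: aggagtcagtggGGAAGTagagacaaaggc
The last set holds a CTCF core in 2 of the 5 regions with the steadiest values, at chr2:164215308-164215337 on the minus strand for Matn4 and chr17:84590420-84590449 on the minus strand for Thada.
Matn4: ggaccgtccaggAGGGGGCgctggcgggcc
Thada: tcgaacaccagcAGGTGGCgctcttgcaca
GGAAGT was not limited to regions that fell. Slc12a3, Ltc4s and Thada of the 5 steadiest held it too, as did 2 of the 7 named regions searched that rose from nB to BMPC. A match of letters describes the sequence and is not evidence that a factor was bound.

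In size and spacing the regions were of the scale of single regulatory elements. Their width had a median of 493 bp, between 164 and 2366 bp, and the median distance to the nearest annotated start was 9771 bp, with 709 regions more than 10000 bp and 78 within 1000 bp of one. They belonged to 1356 genes by identifier, 101 of which had 2 or more such regions and none more than 4. In the table all 1446 were also annotated to an exon, 696 to an intron and 26 to a 5′ UTR. Against the GENCODE vM1 annotation of the same build, 1183 overlapped a 3′ UTR and 1108 one of the gene named in the table. In those 1108, a median of 88.4% of the width lay in the 3′ UTR and 515 lay in it entirely. The centers lay a median of 735 bp before the transcript end, 223 within 250 bp of it, and 270 regions spanned it. The genes were on the plus strand in 546 and on the minus strand in 562.

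By base composition the 3′ UTR regions resembled other distal regions and not promoters. The observed over expected ratio of CpG in the central 300 bp had a median of 0.280, against 0.758 in promoters, 0.325 in other exons, 0.211 in introns and 0.239 in intergenic regions, and the GC content had a median of 50.3%, against 63.3%, 52.3%, 47.0% and 47.7%. On either strand, CAGCTG, a core of the E proteins, stood in 24.3% of the 3′ UTR regions and in 20.6% of all regions of the same length, and the CTCF cores AGGGGGC and AGGTGGC in 21.9% against 17.6%. GGAAGT stood in 28.0% against 30.3%, the Runx core TGTGGT in 24.7% against 24.5%, the AP-1 core TGANTCA in 7.26% against 9.19%, the joint element of PU.1 and IRF in 5.05% against 5.70%, and ATGCAAAT in 4.50% against 3.96%. Signals that act in the RNA stood about as often on the other strand as on that of the gene. Among the 1183 regions with a strand, AATAAA was found on the strand of the gene in 13.6% and on the other strand in 13.9%, and ATTTA, the core of AU-rich elements, in 19.9% and 20.5%.

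The level of the 3′ UTR regions was that of distal chromatin. Their median was 4.40 RPPM in C nB, 5.60 in C GCB and 4.70 in C BMPC, and 4.23, 6.04 and 5.34 RPPM in KO. Promoters had medians between 24.4 and 34.0 RPPM over the 6 groups, introns between 3.35 and 4.99 and intergenic regions between 3.28 and 5.34. Of 1173 3′ UTR regions whose gene also had a promoter region, 151 were more open than the most open promoter region of that gene. Among the 1446, 409 reached a mean of at least 10 RPPM.

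**Figure D1:**
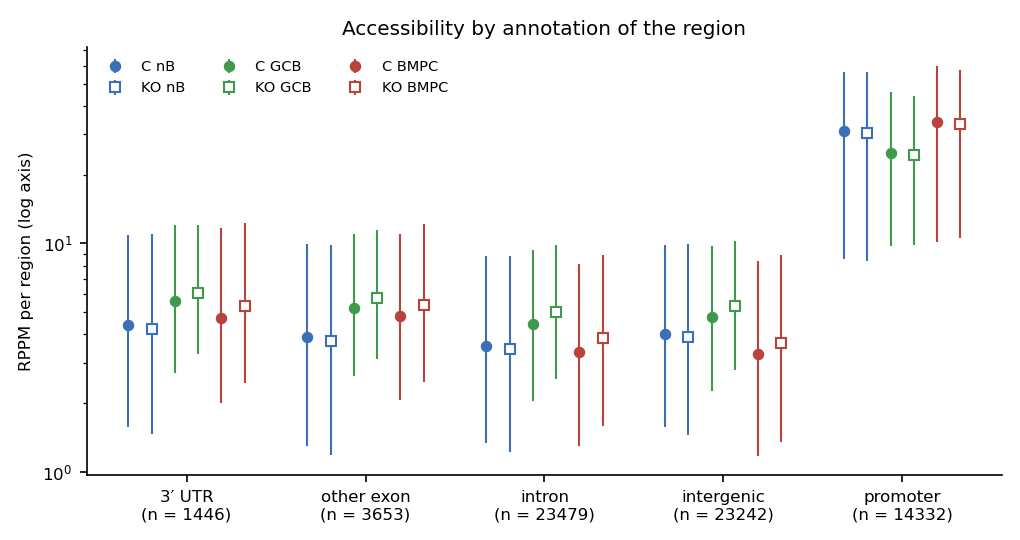
Median RPPM per region (points, log axis) with lower and upper quartiles (lines) for regions of each annotation, in C (filled circles) and KO (open squares) nB, GCB and BMPC. The 3′ UTR regions, with medians between 4.23 and 6.04 RPPM, sit beside the other distal regions and below the promoters.

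The most open 3′ UTR regions were open in every cell type. The highest mean on the log2 scale belonged to Cytip, a lymphocyte adaptor protein that regulates adhesion, at chr2:58008622-58010132. The table placed it in a 3′ UTR, while 0% of its width lay in a GENCODE 3′ UTR, as in 21 of the 84 regions named here. It measured 101, 79.1 and 80.6 RPPM in the C nB libraries, 136 and 125 in C GCB and 129, 143 and 142 in C BMPC. All C GCB and BMPC libraries lay above the C nB libraries, and the differences of 0.59 ± 0.11 and 0.67 ± 0.10 on the log2 scale (± SE, limma) did not reach 2-fold. Scaled to width, the Trib1 region, at 78.2 RPPM per kb, ranked 4 of 1446 and led the 12 named for their level, ahead of Cytip at 74.0, while that of Fosb, 183 bp wide, ranked 1 at 109 RPPM per kb. Trib1 is a pseudokinase that directs proteins to degradation, and its region lay wholly within the 3′ UTR at chr15:59484216-59485171. Its C libraries measured 64.1, 78.7 and 68.5 RPPM in nB, 55.9 and 58.1 in GCB and 97.3, 104 and 106 in BMPC, with no overlap between BMPC and the others. The region in the 3′ UTR of Btla, an inhibitory receptor of lymphocytes, was called in no comparison, with group means between 51.0 ± 3.56 (SD, n = 2) in KO BMPC and 67.9 ± 4.37 RPPM (SD, n = 3) in C nB. Beside it the Btla promoter region measured 62.3, 40.5 and 25.3 RPPM in C nB, GCB and BMPC and was called lower in BMPC than in nB. Of the other most open regions, Yeats4, a subunit of acetyltransferase complexes, lay 120 bp from the gene's annotated start, and its region, at 101, 135 and 60.2 RPPM in C nB, GCB and BMPC, was called lower in BMPC than in GCB. The remaining 8 (Man2a1, Ctdsp1, Fbxl22, Cacna1a, Prdm2, Pdlim3, Mettl8 and 3300002I08Rik) had means between 64.5 and 97.2 RPPM.

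The share of 3′ UTR regions called between cell types in C was close to that of all regions pooled, and from nB to BMPC it lay above that of promoters and below that of introns. Calls were made with limma, at an adjusted p up to 0.01 together with a change of 2-fold or more. Among C libraries, 761 of the 1446 regions (52.6%) were called between at least 1 pair of cell types, against 51.8% of all regions. From nB to GCB 242 rose and 109 fell, 16.7% and 7.54% of the 3′ UTR regions, against 14.2% and 8.47% of all regions. From nB to BMPC 316 rose and 233 fell, 21.9% and 16.1%, against 18.0% and 20.1% of all regions. From GCB to BMPC 185 rose and 275 fell, 12.8% and 19.0%, against 11.3% and 19.1%. By annotation, 38.0% of the 3′ UTR regions were called from nB to BMPC, against 17.6% of promoters, 39.0% of regions in other exons, 45.3% in introns and 43.4% in intergenic DNA, shares given with no test. The median difference of the 3′ UTR regions was 0.18, 0.11 and -0.05 in these comparisons and that of all regions 0.05, 0.03 and -0.06. The median from GCB to BMPC turned sign with the C GCB library omitted, being 0.05 without replicate 1 and -0.15 without replicate 2, and without replicate 2 the number that fell from nB to GCB was 67. After quantile normalization, 52.9% of the 3′ UTR regions called from GCB to BMPC in C rose in place of 40.2%, as the median of all regions moved from -0.06 to 0.09 and that of the 3′ UTR regions to 0.16. From nB to GCB in C, quantile normalization gave 201 that rose and 134 that fell, with a median of 0.015. Mitochondrial reads, in 2 regions of chrM, were 7.43% to 10.1% of the total in GCB libraries and 2.56% to 4.59% in the others, and rescaling without them gave 36.2%.

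**Figure D2:**
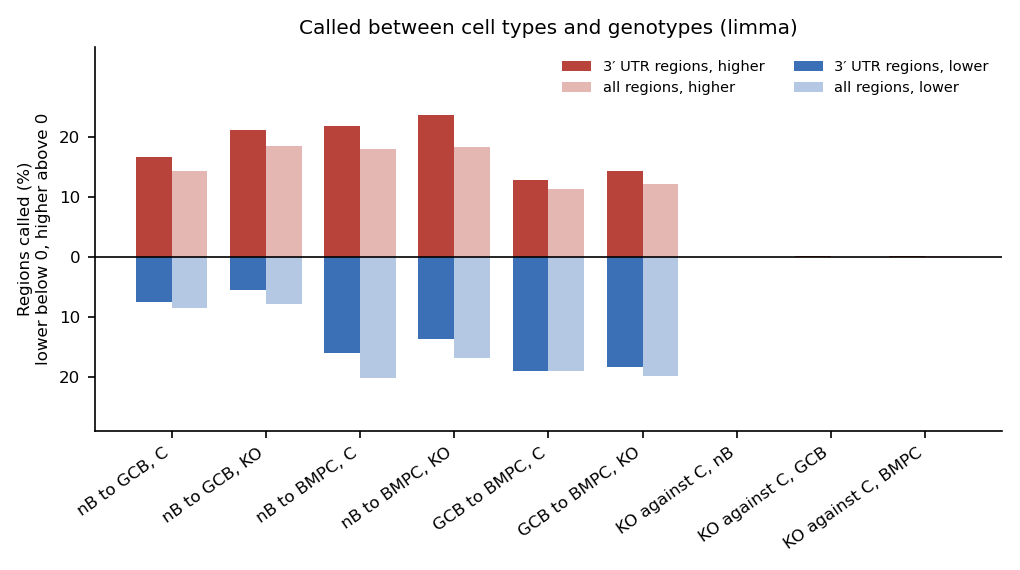
Share of regions called higher (above 0) or lower (below 0) in the second group named, or in KO, for 3′ UTR regions (dark) and all regions (pale) in 9 comparisons. The shares of the 3′ UTR regions lie within a few percentage points of those of all regions in each comparison, and between genotypes at most 3 of 1446 regions were called.

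By pattern over the C cell types, 114 regions were lower in BMPC than in both nB and GCB (7.88%, against 9.27% of all regions) and 104 were higher there (7.19% against 5.87%). A further 92 were lower in nB than in both others (6.36% against 5.15%), 69 higher in GCB than in both others (4.77% against 4.39%), 32 higher in nB (2.21% against 3.53%) and 22 lower in GCB (1.52% against 1.77%). Each of these patterns was counted only where the remaining comparison was not called. The other called regions differed in 1 comparison only (245, or 16.9% against 17.2% of all regions) or in all 3 (83, or 5.74% against 4.69%). Regions called in all 3 can also be highest or lowest in 1 cell type and are not in the counts above. Regions with at least 50% of their width in a GENCODE 3′ UTR, 768 in number, were called from nB to BMPC in 37.0%, those with a smaller overlap in 36.6% of 415, and those with none in 43.0% of 263.

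The regions that rose most from nB to BMPC were low in nB. The region of Myl12a, a regulatory light chain of nonmuscle myosin, at chr17:71342677-71343265, had 45.8% of its width in the 3′ UTR and measured 0.731, 0.377 and 0.372 RPPM in C nB, 0 and 1.41 in C GCB and 41.6, 39.4 and 42.0 in C BMPC. KO BMPC libraries read 37.4 and 45.7, so every BMPC library lay above every other library, and the difference from nB was 4.82 ± 0.36 on the log2 scale (limma, adjusted p = 5.6e-12). The Myl12a promoter region measured 93.5 RPPM in C nB and 108 in C BMPC and was not called. Selt, an oxidoreductase of the endoplasmic reticulum that contains selenocysteine, rose from 0.731, 0.377 and 0.372 to 27.6, 28.3 and 27.1 RPPM, by 4.27 ± 0.35. The C nB values of Myl12a and Selt lie at or below the floor of 3 reads, so the size of these differences depends on the pseudocount. Others were Sos1, which activates Ras, and Slc35f3, Cacna1c, Olfr157 and Rnf165, with group means of 46.0, 54.1, 48.6, 23.0 and 24.5 RPPM in C BMPC and at most 1.84 in C nB. The myeloid marker promoters given above were also higher in BMPC than in nB, and their part in these rises was not tested. From GCB to BMPC, Myl12a, Sos1 and Selt were again among the 5 that rose most, with Eif4e3 and Nacc2.

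The regions that fell most from nB to BMPC were open in nB and measured at most 3.42 RPPM in C BMPC. In the 3′ UTR of Rnf41, a ubiquitin ligase, the region chr10:127875890-127876449 measured 49.9, 59.7 and 56.6 RPPM in C nB, 64.2 and 71.7 in C GCB and 1.43, 1.46 and 1.09 in C BMPC, a difference from nB to BMPC of -4.60 ± 0.20 (limma, adjusted p = 1.8e-16). The promoter region of Rnf41 measured 60.8 RPPM in C nB and 49.1 in C BMPC and was not called. Erg, an ETS family transcription factor, carried the GGAAGT window printed above and measured 26.3, 27.3 and 29.6 RPPM in C nB, 4.40 and 3.28 in C GCB and 0.780, 0.182 and 0.156 in C BMPC. It was called in all 3 comparisons of C cell types, by -2.58 ± 0.29 from nB to GCB and by -4.42 ± 0.26 from nB to BMPC. Abcb10, a transporter of the mitochondrial inner membrane, kept nB and GCB at 70.7 and 81.2 RPPM and fell to 3.42 in C BMPC. Stau2, which binds double-stranded RNA, fell from 21.2 to 0.303 RPPM, Usp38, a deubiquitinase, from 35.3 to 1.04, Ildr1 from 20.2 to 0.459 and Armc9 from 19.3 to 0.294. The region of Rfc3, a subunit of the clamp loader of DNA replication, was highest in GCB, with 31.0 RPPM in C nB, 66.0 in C GCB and 1.23 in C BMPC.

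The regions that rose most from nB to GCB were in part less open in BMPC than in GCB. In the 3′ UTR of Hsph1, a chaperone of the heat shock family, the region chr5:150419303-150420024 measured 1.46, 2.26 and 2.98 RPPM in C nB, 83.1 and 91.3 in C GCB and 21.5, 30.7 and 48.4 in C BMPC. The groups did not overlap, and the region was called in all 3 comparisons, by 4.80 ± 0.25 from nB to GCB and by -1.43 ± 0.25 from GCB to BMPC. Sh3bgrl2 measured 0.487, 1.13 and 0.558 RPPM in C nB, 58.9 and 42.2 in C GCB and 6.24, 4.56 and 6.85 in C BMPC, and Arel1, a ubiquitin ligase, 0.487, 0.565 and 0.372, then 30.3 and 28.1, then 7.02, 5.66 and 5.45. Both rose by more than 4 on the log2 scale and, with Hsph1, hold the octamer windows printed above. Cacna1c, a subunit of voltage-gated calcium channels, rose furthest, by 5.07 ± 0.20 to 84.3 RPPM, and its fall to 48.6 in C BMPC was not called. Fam73a measured 0.207 RPPM in C nB, 28.6 in C GCB and 1.72 in C BMPC. The C nB values of Arel1 and the C nB mean of Fam73a lie at or below the floor of 3 reads.

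Among the regions that fell most from GCB to BMPC, those of Iqsec1, Echdc3 and Slc39a14 were highest in GCB. Iqsec1, an exchange factor for Arf proteins, measured 69.5 and 75.9 RPPM in C GCB, 5.85, 9.23 and 9.31 in C nB and 1.04, 0.730 and 0.779 in C BMPC, and from GCB to BMPC it fell by 5.32 on the log2 scale (SE 0.21, limma, adjusted p = 9.6e-17). Echdc3 measured 83.4, 14.2 and 1.42 RPPM in C GCB, nB and BMPC, and Slc39a14, a transporter of zinc and iron, 59.0, 4.91 and 0.798. Each was called in all 3 comparisons of C cell types. In the opposite direction, Txndc5, a protein disulfide isomerase of the secretory pathway, was lowest in GCB. Its region measured 14.1, 11.7 and 10.2 RPPM in C nB, 0.880 and 0 in C GCB and 6.24, 5.47 and 5.14 in C BMPC, and both GCB values lie below the floor of 3 reads. Vamp1, Abhd15 and Slc38a1 also fell from nB to GCB, from 8.73, 20.3 and 30.9 RPPM to 0.674, 2.71 and 5.39. The Vamp1 mean in GCB too lies below that floor.

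**Figure D3:**
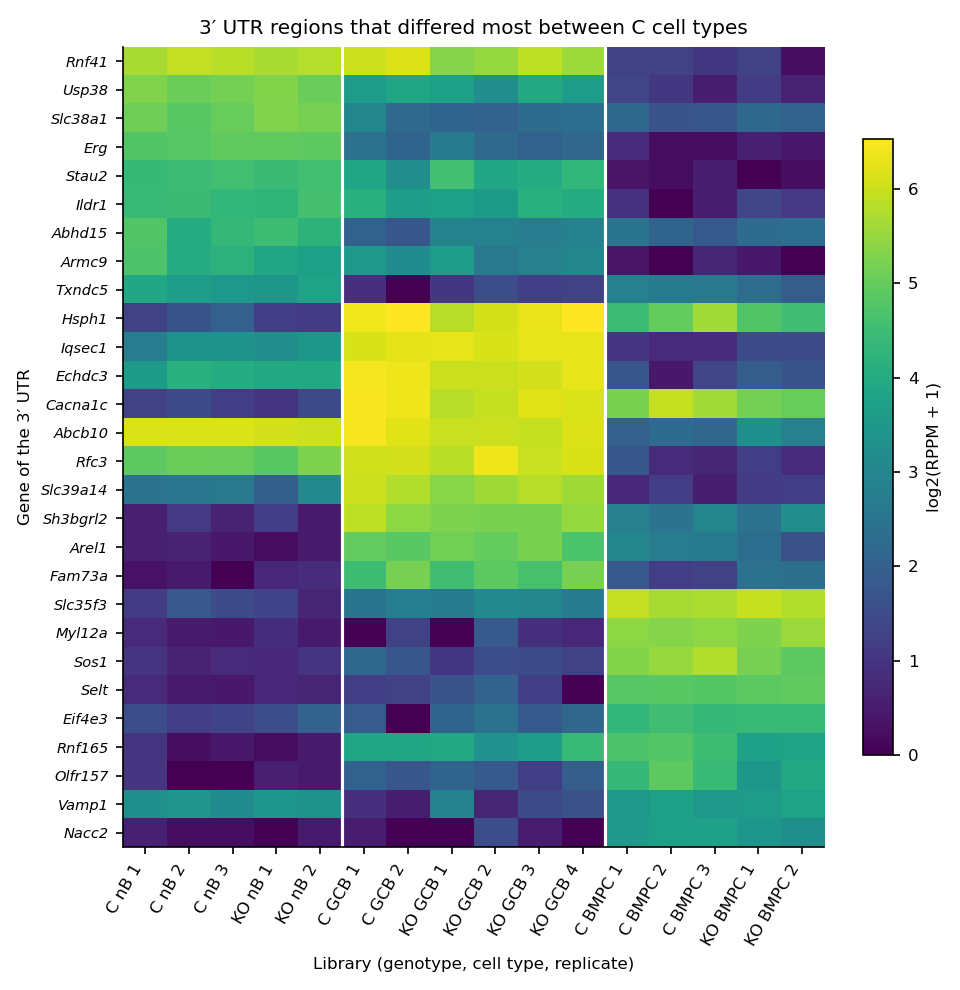
Accessibility as log2(RPPM + 1) in each of the 16 libraries (columns, white lines between nB, GCB and BMPC) for the 3′ UTR regions with the largest called changes between C cell types (rows, by gene, ordered by the cell type with the highest mean). Rows were chosen for no overlap between the libraries of the compared C groups, so the separation of C cell types follows from that choice. Replicates of a cell type look alike in both genotypes, and Iqsec1, Echdc3 and Slc39a14 are bright in GCB and dark in BMPC.

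Direction of change went with sequence in the 3′ UTR regions much as it did in all regions. The octamer ATGCAAAT stood in 13.2% of the 242 that rose from nB to GCB, 0.917% of the 109 that fell and 2.92% of those not called, and among all regions these shares were 9.68%, 2.68% and 3.06%. GGAAGT stood in 47.2% of the 233 that fell from nB to BMPC, 20.9% of the 316 that rose and 25.5% of those not called, and among all regions in 47.8%, 21.2% and 27.2%. The CTCF cores were found most often in regions that were not called, with 27.8% of the 3′ UTR regions not called from nB to BMPC against 13.0% of those that rose and 11.2% of those that fell. In all regions these were 21.2%, 13.8% and 10.1%, with promoters included. These shares are descriptions with no test.

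**Figure D4:**
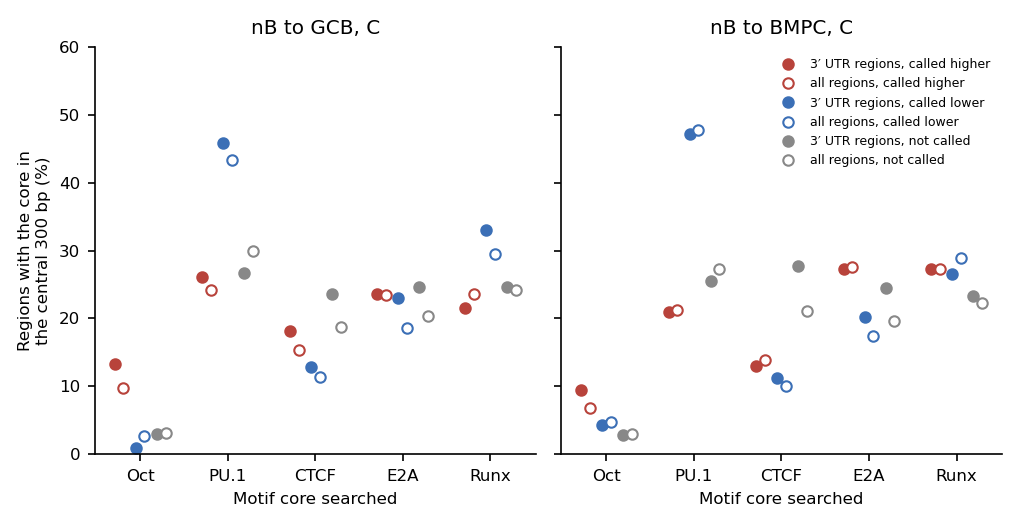
Share of regions with a motif core in their central 300 bp for 3′ UTR regions (filled) and all regions (open) that were called higher, called lower or not called from nB to GCB (left) and from nB to BMPC (right) in C. The Oct core is most frequent where regions rose to GCB (13.2%) and the PU.1 core where regions fell to BMPC (47.2%).

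In genes that had both, the change of the 3′ UTR region was set beside that of the most open promoter region of the gene. Of the 1173 3′ UTR regions with a promoter region of the same gene, 459 were called from nB to BMPC in C and 160 of the promoter regions, each counted once per 3′ UTR region. Both were called in 73 and in the same direction in 59. With 160 promoter regions called, the number called together was limited in advance. No number expected in the absence of a link was worked out. The absolute log2 difference had a median of 0.76 in the 3′ UTR regions and 0.26 in the promoters, and across the 1173 the differences correlated with r = 0.22, a description over genes that share the same libraries. From nB to GCB both were called in 41 and in the same direction in 33, and from GCB to BMPC in 67 and 48. Some genes had several 3′ UTR regions. Of 121 pairs of such regions in 100 genes, both members of the pair were called from nB to BMPC in 38, in the same direction in 36, and 1 of the pair alone in 40. Of all 3′ UTR regions 38.0% were called in this comparison.

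Of 48 listed genes of B cell identity and function, 11 had an open 3′ UTR region, and 4 of these regions fell and 3 rose from nB to BMPC. For this list and the next ones, the shares to set beside such counts are the 16.1% lower and 21.9% higher of the 3′ UTR regions and the 20.1% and 18.0% of all regions. The median difference of the 11 was 0.14, against 0.11 for the 3′ UTR regions and 0.03 for all regions. The region of Cxcr5, the chemokine receptor that guides B cells to follicles, at chr9:44320111-44320467, measured 18.5, 18.5 and 14.7 RPPM in C nB, 16.7 and 9.84 in C GCB and 0.780, 0.365 and 0.311 in C BMPC, and it fell by 3.62 ± 0.24 on the log2 scale from nB to BMPC. Its promoter region also fell, from 62.6 to 7.37 RPPM. Ikzf1 and Ikzf3, which encode Ikaros family factors, fell from 13.6 to 1.50 and from 7.64 to 1.38 RPPM, and Cd74, the invariant chain of antigen presentation, from 21.7 to 7.74 after 44.0 in C GCB. Foxp1, a repressor of plasma cell differentiation, rose from 1.27 to 12.8 RPPM, the tetraspanin Cd37 from 1.46 to 10.5 and the interferon regulatory factor Irf8 from 3.27 to 10.9. The Ccr7 region fell from nB to GCB, from 8.01 to 2.90 RPPM, and that of Pou2af1, the OBF-1 coactivator, was called between GCB and BMPC in KO only, with values of 2.50 and 6.12, and the interaction of genotype and cell type was not called there. Ltb and Spib were called in no comparison.

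Germinal center genes had 7 such regions in 28 genes, with 2 rising and 2 falling from nB to BMPC and a median difference of 0.16. Il21r, the receptor for the cytokine that sustains germinal centers, fell from 28.3 RPPM in C nB to 18.1 in C GCB and 2.57 in C BMPC, called against both. Pdcd1lg2, which encodes PD-L2, moved opposite to its promoter. Its region measured 29.2, 27.3 and 30.1 RPPM in C nB, 5.28 and 6.09 in C GCB and 8.19, 9.85 and 9.97 in C BMPC, while its promoter region rose from 1.34 RPPM in C nB to 19.8 in C GCB and 21.6 in C BMPC. Ccnd3, a D-type cyclin, rose from 1.55 RPPM in C nB to 11.9 in C BMPC, and Basp1, a membrane-associated protein, was called from nB to both GCB and BMPC, with 2.72 RPPM in C nB and 11.3 in C GCB. The region of Mef2b was called in no comparison, and that of Fcrl5 only from GCB to BMPC in KO.

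Plasma cell genes had 10 such regions in 6 of 40 listed genes, and 1 rose and 2 fell from nB to BMPC, with a median difference of -0.24. From GCB to BMPC in C, 5 rose and 2 fell, with a median of 1.30, where 12.8% and 19.0% of the 3′ UTR regions and 11.3% and 19.1% of all regions were called and the medians were -0.05 and -0.06. In KO 2 rose and 2 fell, with a median of 0.40. Cd28, a costimulatory receptor that long-lived plasma cells also carry, had 2 regions. The first, at chr1:60828529-60829172, rose from 0.487, 0.565 and 0.186 RPPM in C nB to 17.6, 18.8 and 19.8 in C BMPC, by 3.81 ± 0.36, and the promoter region from 2.60 to 27.8. The C nB values of this 3′ UTR region lie at or below the floor of 3 reads. The other measured 3.29 and 5.24 RPPM in C nB and C BMPC and was not called between them. Both regions of Atf6, a sensor of the unfolded protein response, fell, from 16.5 to 1.06 and from 41.6 to 6.58 RPPM, while the Atf6 promoter region measured 23.6 and 43.4 RPPM and was not called between them, though it was called higher in BMPC than in GCB, where it measured 11.8. Irf4, the transcription factor required for plasma cells, was lowest in GCB, with 25.1, 21.1 and 18.8 RPPM in C nB, 6.16 and 4.68 in C GCB and 18.6, 16.8 and 16.3 in C BMPC. One of its regions and that of Ern1 were called in no comparison. The 2 regions of Jchain, which links polymeric antibody, were low throughout, at most 4.22 RPPM in any group. Each was still called in at least 1 comparison between cell types. The Jchain promoter region was called higher in BMPC than in nB, from 1.05 to 29.0 RPPM.

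Immediate early and activation genes had 11 regions in 9 of 41 listed genes, and 4 rose and 0 fell from nB to BMPC, with a median difference of 0.05. These 4 belong to Jun, Junb and Fosb, subunits of AP-1, and Egr1, a zinc finger factor, all induced within minutes of a stimulus. The Jun region, chr4:94714487-94716088, measured 10.5, 13.4 and 16.4 RPPM in C nB, 34.7 and 45.0 in C GCB and 157, 151 and 196 in C BMPC. The 3 cell types did not overlap among C libraries, and the difference from nB to BMPC was 3.56 ± 0.31 (limma, adjusted p = 1.7e-10). KO BMPC libraries measured 159 and 158, and a KO GCB library, the shallowest of all, 9.91. In contrast the Jun promoter region measured 158 RPPM in C nB, 116 in C GCB and 150 in C BMPC and was not called. Egr1 rose from 1.71, 1.51 and 1.86 RPPM in C nB to 44.5, 36.3 and 44.1 in C BMPC while its promoter region stood at 83.5 and 78.4. One of 3 Junb regions rose from 10.5 to 49.2 RPPM and the Fosb region from 10.6 to 31.5, with no call at either promoter region from nB to BMPC. The Fosb promoter region was called higher in BMPC than in GCB, with 69.6 against 28.6 RPPM in C, and the other 2 Junb regions were called in no comparison. These 4 regions lay between 1327 and 5960 bp from the nearest annotated start. Ier2 went the other way from nB to GCB, from 31.1 to 11.2 RPPM, and Cd69 and Jund were called in no comparison.

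Few 3′ UTR regions were called between genotypes, which with 2 to 4 libraries a group does not show that the others did not differ. In nB limma called 0 of 1446 and 0.0% of all regions in either direction, and edgeR and DESeq2 also called 0 of the 1446. At an unadjusted p under 0.05 (limma), 9 were higher and 18 lower. These are 0.622% and 1.24%, against 0.630% and 1.04% of all regions. In GCB 1 was called higher in KO and 0 lower, against 0.0317% and 0.0% of all regions. In BMPC 3 were called higher and 0 lower, against 0.0907% and 0.0136% of all regions. At an unadjusted p under 0.05, 134 of the 3′ UTR regions (9.27%) had the higher mean in KO BMPC and 36 (2.49%) the lower, against 6.96% and 2.59% of all regions, and the median difference was 0.09 against 0.03. With TMM scaling 111 were higher and 59 lower at that p and the medians were 0.03 and -0.03. After quantile normalization these were 79 and 51, with medians of 0.0051 and -0.015. The likelihood ratio test of edgeR on reads called more in BMPC, 44 higher and 8 lower, or 3.04% and 0.553% of the 3′ UTR regions against 2.01% and 0.526% of all regions.

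Of the 3 regions higher in KO BMPC, that of F2rl1, a receptor activated by proteases, at chr13:96282574-96283044, differed most. It lay wholly within the 3′ UTR and held 0, 0 and 1 reads in the C BMPC libraries and 59 and 31 in the KO BMPC libraries, or 0, 0 and 0.156 against 7.17 and 5.79 RPPM. No library of nB or GCB exceeded 2.64 RPPM. The difference was 2.83 on the log2(RPPM + 1) scale (limma, adjusted p = 0.00026) and, resting on so few reads in C, depended on the pseudocount, with 5.58 at 0.1 RPPM and 1.18 at 5 RPPM. The F2rl1 promoter region measured 12.3 ± 2.58 (SD, n = 3) RPPM in C BMPC and 36.5 ± 0.943 (SD, n = 2) in KO BMPC, a difference of 1.52 that was not called (limma, adjusted p = 0.019). The genotype effect on the 3′ UTR region was larger in BMPC than in nB by 3.13 and than in GCB by 3.12, with adjusted p = 0.028 and 0.036 (limma interaction), above the threshold of 0.01. No interaction was called in any 3′ UTR region, nor in 0.0% of all regions for each of BMPC against nB, BMPC against GCB and GCB against nB, while at an unadjusted p under 0.05 the effect was higher in 74, 78 and 70 of the 1446 and lower in 7, 62 and 23. These are 5.12%, 5.39% and 4.84% higher, against 3.95%, 4.63% and 4.15% of all regions, and 0.484%, 4.29% and 1.59% lower, against 1.30%, 3.70% and 2.06%. The quasi-likelihood test called 2, 2 and 0 of these interactions in 3′ UTR regions, against 0.074%, 0.0287% and 0.0% of all regions. DESeq2 also called 2, 2 and 0, against 0.0423%, 0.0287% and 0.0%, and the likelihood ratio test 5, 5 and 0, against 0.267%, 0.113% and 0.00604%.

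The region of Fam53b, a nuclear protein of Wnt signaling, at chr7:139905104-139905615, was higher in KO in both GCB and BMPC. In nB it measured 10.2, 10.9 and 9.68 RPPM in C and 11.2 and 9.64 in KO, which overlap. In GCB it measured 4.84 and 1.41 RPPM in C and 8.81, 13.4, 11.8 and 15.4 in KO, a difference of 1.81 ± 0.30 (limma, adjusted p = 0.0075). In BMPC it measured 1.04, 0.730 and 1.09 RPPM in C and 6.20 and 4.48 in KO, a difference of 1.69 ± 0.31 (limma, adjusted p = 0.0092). In both cell types every KO library lay above every C library. The means in nB, GCB and BMPC were 10.3, 3.12 and 0.953 RPPM in C and 10.4, 12.3 and 5.34 in KO. The lower C GCB value is 3 reads, and without that library the adjusted p of the GCB difference was 0.26. By the quasi-likelihood test and DESeq2 the GCB difference had an adjusted p of 0.084 and 0.32. The difference between cell types in these effects was not called (limma interaction, adjusted p = 0.38 for BMPC and 0.63 for GCB, each against nB). The Fam53b promoter region was not called between genotypes.

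The remaining region, at chr12:77419618-77420621, had 5.38% of its width in the 3′ UTR of Mthfd1, an enzyme of folate metabolism, and the nearest annotated start was that of Akap5. It measured 12.5, 7.85 and 9.81 RPPM in C BMPC and 21.0 and 22.0 in KO BMPC, a difference of 1.05 ± 0.18 (limma, adjusted p = 0.0051), against 39.8 and 40.8 RPPM in C and KO nB. Every KO BMPC library lay above the C BMPC and below the nB libraries. These calls rest on few libraries. Without either KO BMPC library limma called 0 of the 3, without C BMPC replicate 2 or 3 it called 1 3′ UTR region, and without C BMPC replicate 1 it called 5. In GCB it called 4 without C replicate 1, 0 without C replicate 2, and 0 without KO replicate 2, 3 or 4.

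Among the named regions that were not called in BMPC, Abcb10 measured 3.42 RPPM in C and 7.45 in KO (limma, adjusted p = 0.0035), and its change of 0.92 fell short of 2-fold. Smad7, B4galt5 and Pstpip2 had 1.40, 3.46 and 1.42 RPPM in C and 11.5, 15.2 and 6.42 in KO, all above the limit of 0.01 (limma, adjusted p = 0.0101, 0.0109 and 0.0193). In each, both KO BMPC libraries lay above the 3 C BMPC libraries. In GCB, Sufu and Rock2 measured 4.04 and 0.454 RPPM in C and 14.2 and 4.28 in KO (limma, adjusted p = 0.0166 for each). The Rock2 mean in C lies below the floor of 3 reads, 1.32 and 1.41 RPPM in the C GCB libraries. In KO GCB libraries that floor reached 3.30 RPPM. Cyp4f37, Prr5l and Antxr1 had the smallest p in nB, with 3.57, 5.16 and 7.09 RPPM in C and 1.26, 2.58 and 3.84 in KO. The Antxr1 value in KO rests on 1 library, with 0 and 7.68 RPPM in the KO nB libraries.

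**Figure D5:**
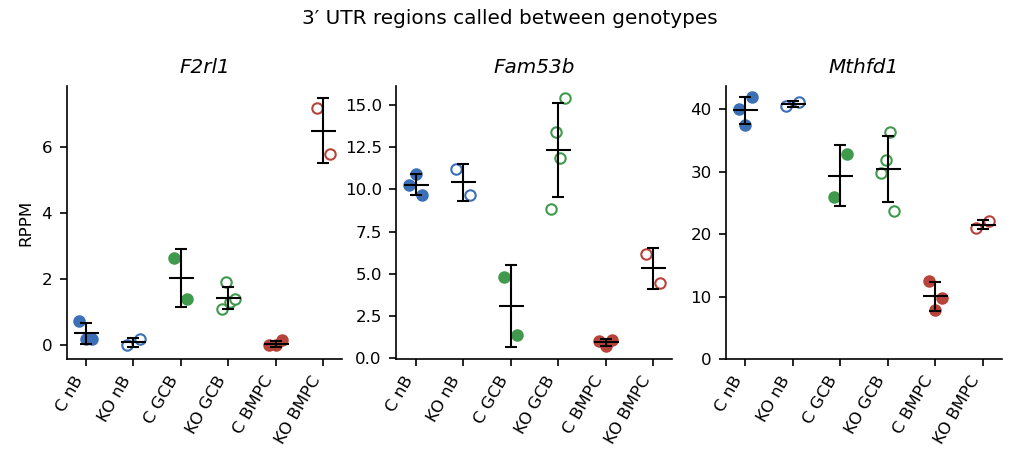
RPPM in each library (filled, C; open, KO) of the 3 regions called between genotypes, with means and SD (black), in nB, GCB and BMPC. The KO BMPC libraries lie above the C BMPC libraries in all 3, and the KO GCB libraries above the C GCB libraries in Fam53b only.

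Most regions called between cell types in C were also called in KO, at shares close to those over all regions. In KO, 306 regions rose and 81 fell from nB to GCB (21.2% and 5.60%, against 18.4% and 7.84% of all regions), 343 rose and 199 fell from nB to BMPC (23.7% and 13.8%, against 18.4% and 16.9%), and 207 rose and 266 fell from GCB to BMPC (14.3% and 18.4%, against 12.1% and 19.9%). After quantile normalization, 60.9% of the called regions rose from nB to GCB in KO in place of 79.1% and 55.7% from GCB to BMPC in place of 43.8%. Of the 549 called from nB to BMPC in C, 456 were called in the same direction in KO, which is 83.1% of the C calls and 84.1% of the 542 KO calls, against 79.9% and 86.3% over all regions. For nB to GCB these shares were 76.1% and 69.0%, against 76.9% and 66.5% over all regions, and for GCB to BMPC 77.6% and 75.5%, against 77.7% and 73.9%. Of the 3′ UTR regions 1 was called in opposite directions, from GCB to BMPC.

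Some 3′ UTR regions hardly differed over all 6 groups. Among those with a mean of at least 10 RPPM, the smallest range of group means, 0.18 on the log2 scale, belonged to Matn4, a matrix protein, with means between 15.9 and 18.2 RPPM. Slc12a3, a sodium chloride cotransporter of the kidney, measured 53.8, 56.1 and 57.1 RPPM in C nB, 53.2 and 59.5 in C GCB and 59.2, 65.7 and 55.7 in C BMPC, so the groups overlapped. St3gal2, Ltc4s and Thada had ranges of 0.23, 0.26 and 0.29, and the Ltc4s region lay at an annotated start.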

How the data were processed

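ATAC-seq of 16 libraries was analysed. Per the labels and methods, the authors quality-trimmed the reads, aligned them with Bowtie to mm9, called MACS2 peaks sample by sample and merged all peaks. The deposited values are RPM within regions (RPPM), the reads in a region scaled to a library total of 1000000. The deposited log2 fold changes, p-values and FDR of the authors' 9 comparisons were left unused, as they hold the study's own results. Each value was a whole multiple of 1 read in 100% of 1058832 values (tolerance 0.001), and reads were recovered from it. PCR copies could not be told from separate molecules, so the floor of 3 reads covers counting error only.

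Group means of log2(RPPM + 1) were fitted with limma 3.58.1 in R 4.3.3 in 1 fit of all libraries, with a trend and Benjamini-Hochberg adjustment over all 66177 regions. Reads were tested with edgeR 4.0.16 and DESeq2 1.42.0 as alternatives. Other alternatives were pseudocounts of 0.1 and 5 RPPM, quantile normalization, TMM scaling, a minimum mean of 1 RPPM, rescaling without chrM, fits of the compared groups, an adjusted p up to 0.05, omission of each library, a replicate block for GCB pools, and narrower lists of regions. The test was tried on simulated data. Motifs were searched with pysam 0.24.0 in the mm9 genome, tables were handled in Python 3.11.15 with pandas 2.3.3, and gene names were matched by identifier, 1353 of 1356. Named regions were the 12 most open, those with the largest called changes between C cell types without overlap (8 each way for nB to BMPC, otherwise 5), those called or with the smallest p between genotypes, called members of 4 gene lists, and the 5 steadiest, with 1 region a gene except in the lists. A few regions that the rule named are not reported here. The regions, lists and rule were chosen with earlier results of these data known.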

Additional observations from a re-analysis of the deposited data

Results flagged for a closer look

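Among the 84 regions reported by the naming rule, 2 had 1 of the 4 KO GCB libraries far from the other 3 by Dixon's test, which flags about 1 in 20 groups by chance. The Iqsec1 region measured 69.4 RPPM in 1 library against 77.1 to 77.6 in the others, and the Foxp1 region 5.51 RPPM against 0.636 to 1.40.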

How the results depend on the processing

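With 5 RPPM in place of 1 as pseudocount, fewer 3′ UTR regions were called between cell types, with 162, 303 and 246 for nB to GCB, nB to BMPC and GCB to BMPC in C in place of 351, 549 and 460, and 166, 310 and 259 in KO in place of 387, 542 and 473. The other settings kept these counts within 1.5 times. Omitting 1 library at a time gave 273 to 313, 505 to 540 and 391 to 449 in C, and 264 to 411, 419 to 427 and 371 to 479 in KO.

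Counts between genotypes were small and moved with the setting. In GCB, in place of 1, there were 9 at an adjusted p up to 0.05, 0 and 3 with pseudocounts of 0.1 and 5 RPPM, 3 after quantile normalization, 0, 4 and 0 by the quasi-likelihood test, the likelihood ratio test and DESeq2, and 0 to 4 on omitting 1 library. In BMPC, in place of 3, there were 12 at an adjusted p up to 0.05, 5 and 6 with pseudocounts of 0.1 and 5 RPPM, 1 after quantile normalization, 5 in a fit of the compared groups, 36, 52 and 19 by these read tests, and 0 to 5 on omitting 1 library. The likelihood ratio test called 5 interactions of BMPC with nB and 5 with GCB in place of 0. In nB every setting that omitted 1 library gave 0. The narrower lists gave 3 in BMPC. The cause of these shifts was not tested.

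F2 and M1 each name a C GCB and a KO GCB pool. The deviations of pools with the same name correlated with 0.0363 and 0.0638, so the names were not taken as pairs, and a fit with the replicate block called 5 in GCB. Over all settings, results for named regions kept direction and side of the threshold 2187 times, lost the call 132 times, 58 of them on omitting 1 library and 30 with a pseudocount of 5 RPPM, and gained one 34 times. Of these results 1 changed direction, the Antxr1 difference in nB, which was -1.45 with all libraries, ranged from -3.01 to 0.11 on omitting 1 library and was 0.11 without KO replicate 1. In GCB the depth of 907959 to 2280954 reads limits values below 3.30 RPPM.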
